A study of Homo sapiens with 8 samples.

Results

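Cultures given a physical stress (UV irradiation or heat shock) were compared with cultures given a protein ligand (hepatocyte growth factor, HGF, or interferon gamma, IFNg). A gene model was a member when its expression values after both stress treatments lay above, or both lay below, its values after both ligand treatments. Of 25918 gene models, 18195 stood above the common floor of the table in at least 1 treatment. Of these, 5108 ranked higher after both stress treatments and 4453 ranked lower, and in the other 8634 the sides overlapped. A site was a member when m6A peaks within 100 nt of each other were listed after both treatments of one side and after neither of the other. Of 17764 sites, 2678 were listed after both stress and neither ligand treatments, 401 after both ligand and neither stress treatments, and 2925 after all 4.

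Each of the 4 treatments had 1 library of RNA precipitated with an antibody to m6A and 1 input library, from cultures of a line labelled HepG2. UV was given at 0.04 J/cm2 with 4 h of recovery, and heat shock was 30 min at 43 °C. Whether the recovery also followed the heat shock is unclear from the labels. HGF was added at 10 ng/ml and IFNg at 200 ng/ml, both overnight. The sides therefore differ in length of exposure as well as in kind of agent, and these cannot be told apart. A side is a pair of different treatments, not a pair of replicates. An exact permutation test of 2 against 2 cannot give a two-sided p below 0.333, so no p-value is given and every difference below is a description of these libraries.

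N6-methyladenosine (m6A) is the most abundant internal modification of mRNA. It is placed by a nuclear complex around METTL3, read by YTH-domain proteins, and is known to be frequent around stop codons and in long exons. Heat shock activates HSF1 and its chaperone genes, and UV damages DNA. HGF signals through the MET receptor and the ERK kinases, and IFNg through its own receptor and JAK kinases. When the nucleotide next to the cap is an adenosine it can carry m6Am, which antibodies raised against m6A are known to recognise as well.

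The expression value deposited for a gene model is its rank within a treatment, written as a percentile between 0 and 100. It carries no amount of RNA, and the depth of the libraries is unknown. In bulk RNA, fewer cells of a type and less RNA per cell cannot be told apart. The lowest rank of each treatment was shared by many gene models and is its floor. It lay at percentile 45.5 and 32.7 for UV and heat shock, against 20.4 and 18.4 for HGF and IFNg. Values under 45.5 were raised to it when sides were compared, and the gap is the distance, in percentile points, between the nearest values of the 2 sides. The floor was higher after both stress treatments, and so was the number of peaks, with 13307 and 9803 for UV and heat shock, against 9111 and 5280 for HGF and IFNg. The part of these library measures in the results below was not tested, except where a value is given.

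Several defining markers of hepatocytes were low for a line labelled HepG2. Of 8 markers 5 stood above the common floor in at least 1 treatment, and of the wider list of 50 liver genes 23 did. AFP, APOA1 and APOB, all secreted by hepatocytes, were at or below percentile 45.5 in all 4 treatments, and ALB reached 57.6 after heat shock only. HNF4A, the hepatocyte transcription factor, reached 56.9 after IFNg only, and TTR stood at 76.1 and 71.5 after UV and heat shock, against 43.0 and 42.0 after HGF and IFNg. The 23 liver genes above the floor had medians of 48.8 and 57.6 after UV and heat shock, against 46.1 and 56.9 after HGF and IFNg. CPS1 and FOXA1 stood higher than these medians. CPS1, the first enzyme of the urea cycle, stood at 99.6 and 99.7 after UV and heat shock, against 99.6 and 99.4 after HGF and IFNg, and FOXA1 at 71.8 and 68.9, against 81.3 and 81.6. Markers of other cell types were as mixed. Of 7 cholangiocyte markers 5 stood above the floor, with KRT7 at 99.2 or higher in all 4 treatments, EPCAM at 45.5 and 50.2, against 20.4 and 18.4, and CFTR and SPP1 at or under the floor. Of 14 fibroblast and endothelial markers 10 did, with LUM at 92.9 and 95.5, against 90.2 and 81.1, and COL1A2, PDGFRA, VWF and TEK at or under the floor. Of 11 blood markers 7 did. Summed over the 8 hepatocyte markers, the percentiles came to 398.1 and 347.6 after UV and heat shock, against 248.7 and 260.2 after HGF and IFNg. These sums include the floors, which were higher after UV and heat shock. Blood markers summed to 536.5 and 421.7, against 450.4 and 456.3. UV, with the highest floor, also had the highest sum for fibroblast and endothelial (795.4) and cholangiocyte markers (423.1). The part of cell makeup in the results was not tested, and the label is kept as the submitters give it.

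Transcripts poor in G and C ranked higher after both stress treatments, and transcripts rich in G and C ranked lower. Where the mean percentile was 60 or more, 4004 of 10305 (38.9%) lay above on the stress side and 3365 (32.7%) below. Their median transcript GC content was 42.2% for those above, 58.3% for those below and 48.9% where the sides overlapped. In the first of 10 equal groups by GC content (up to 38.7%), 83.1% lay above and 0.943% below. In the last group (61.8% and over), 0.943% lay above and 84.4% below. The medians of the first group were 80.9 and 83.9 after UV and heat shock, against 73.1 and 70.3 after HGF and IFNg. Those of the last group were 72.4 and 67.7, against 83.9 and 85.8. Both stress medians thus lay above both ligand medians in the first group and below them in the last.

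**Figure D1:**
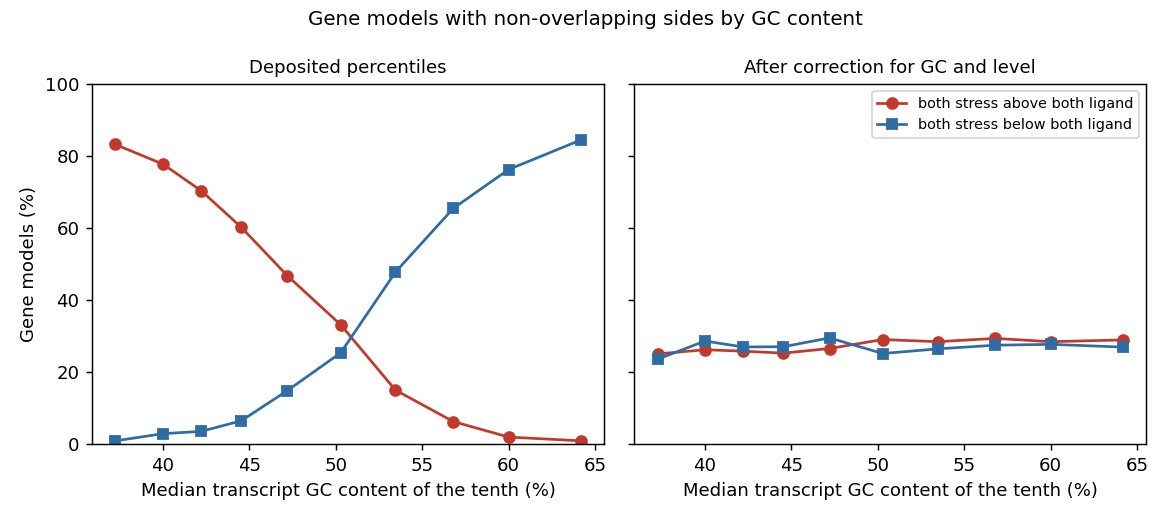
Share of gene models (y axis, %) in which both stress treatments lay above (red circles) or below (blue squares) both ligand treatments, in 10 equal groups by transcript GC content (x axis, median of the group, %). On the deposited percentiles (left) the share above falls along the axis and ends at 0.943%, while after correction for GC content and level (right) both shares stay between 23.6% and 29.5%.

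Transcript length and gene span went with the same split. The median transcript length was 4008.5 nt for gene models above and 2933 nt for those below, and the median gene span 37790.5 and 14580 bases. Across the 9536 gene models with a known GC content and a mean percentile of 60 or more, the rank correlation of the stress minus ligand difference was -0.76 with GC content and 0.19 with transcript length. These correlations are across gene models that share the same 8 libraries, and are given with no p. GC content can act on library preparation as well as on RNA, and its part was not tested. Counts of genes and most gaps are therefore also given after subtracting the treatment's median for similar GC content and level, called the correction below. After that correction the rank correlation with GC content was 0.0008, a value near 0 that follows from the subtraction itself. With GC content alone corrected it was 0.13.

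Of 3770 gene models above with a known GC content, 1700 stayed above after the correction and 434 turned to below. Of 3127 gene models below, 1521 stayed below and 398 turned to above. With a gap of 10 points or more, 547 gene models (5.31%) lay above and 822 (7.98%) below as deposited, against 1.63% and 1.75% of 9536 after correction. Of 497 with GC content that were wide above, 73 stayed wide above, and of 753 wide below, 119 stayed wide below. Over all 18195 gene models the shares were 28.1% above and 24.5% below, or 4.15% and 5.68% with 10 points or more.

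The 10 genes with the largest gaps in each direction had mixed functions, at a mean percentile of 60 or more and with small nucleolar and other short RNAs left out. Some of those short RNAs had wider gaps, such as SNORA42, with a gap of -48.60 points, and SNORD36C, with 47.75 points. BCL3 (iduc002ozr.2, chromosome 19, 49943818 to 49955141, plus strand), a nuclear IkB protein, stood at the floor of 45.5 after UV and 32.7 after heat shock, against 87.3 after HGF and 91.7 after IFNg. The nearest values of the sides were 41.7 points apart, and 25.1 points apart with the same sign after correction. These positions follow the deposited table, whose genome build the sources used here do not give. CFD, the complement factor D protease, stood at 45.5 and 45.1 after UV and heat shock, and both ligand treatments placed it at 86.1 or higher. TIMM17B, a subunit of the inner mitochondrial import channel, stood at 45.5 and 47.6, against 85.0 and 87.8. BCL3, CFD and TIMM17B stood at the UV floor, while both ligand treatments placed them above percentile 85. After correction the gaps of CFD and TIMM17B were -21.23 and -26.58 points. RRAS, GALK1 and CLIC3, a small GTPase, galactokinase and an intracellular chloride channel protein, were at the floors of 45.5 and 32.7 after UV and heat shock, against 77.1 to 80.3 after HGF and IFNg. Their gaps after correction were -20.29, -12.42 and -14.00 points. ULK1, the kinase that starts autophagy, stood at 60.5 and 57.9, against 91.6 and 94.0, and its gap was -31.06 points, or -16.83 after correction.

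Other genes ranked far higher on the stress side. CDR1 (iduc004fbg.1, chromosome X, 139693091 to 139694389, minus strand) stood at 92.7 after UV and 92.7 after heat shock, against the floors of 20.4 after HGF and 18.4 after IFNg. Its locus is known to give an antisense RNA, and since the library kit is not stated to keep strand, reads of the 2 strands cannot be told apart. CKS1B, a regulatory subunit of cyclin-dependent kinases, stood at 83.4 and 81.0 after UV and heat shock, against 40.6 and 18.4 after HGF and IFNg. A gene model with the symbol EEF1B2, that of a translation elongation factor subunit, stood at 80.8 and 76.6, against 20.4 and 51.3. This model (iduc010nga.1) lies on chromosome X, 24716384 to 24717149, minus strand. After correction the gaps were 40.68 points for CDR1, 30.71 for CKS1B and 21.95 for EEF1B2. Related gene copies exist for CKS1B and EEF1B2, and how reads were shared among copies is not known. The EEF1B2 model may itself be a copy and not the gene of that name. Its correction used the GC content of a GENCODE transcript of 1098 nt matched by symbol only. TWF1, an actin-binding protein, stood at 86.3 and 86.3, against 63.3 and 62.7, and GMFB at 81.3 and 86.3, against 59.1 and 45.7. TWF1 and GMFB transcripts are poor in GC (36.4% and 33.4%), and their gaps of 22.98 and 22.22 points became 8.999 and 12.71 after correction.

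**Figure D2:**
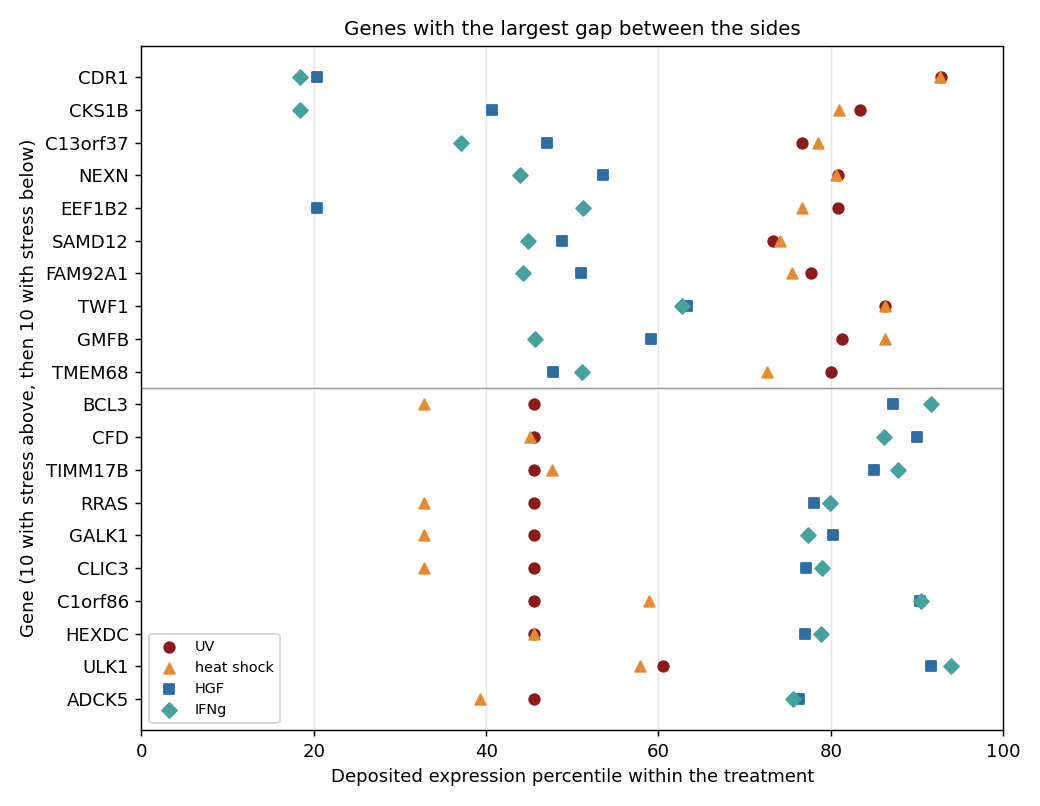
Deposited expression percentile within the treatment (x axis, 0 to 100) for the 10 genes with the largest gap in each direction, short RNAs left out (y axis), with 1 point per treatment. In the upper block UV and heat shock lie to the right of HGF and IFNg, in the lower block to the left, and many points lie on the floors.

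Correction for GC content alone brought a few genes forward that the deposited scale ranked lower. These genes were picked by their gap after it, so wide gaps after correction follow in part from that choice. TCF7L2, the transcription factor of the Wnt pathway, stood at 65.8 and 64.7 after UV and heat shock, against 91.5 and 89.7 after HGF and IFNg. With a GC content of 45.8%, its gap was -23.93 points as deposited and -27.56 after correction. C14orf179 and TMEM41B likewise had a wider gap after correction, with -22.86 and -11.37 points as deposited against -29.25 and -21.69. FAM46B and AFG3L1 had gaps of 10.47 and 11.82 points above as deposited, and of 23.78 and 20.13 points after correction.

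Most chaperones of the heat shock response ranked higher after both stress treatments on the deposited scale, and fewer did after correction. Of 39 genes tested, with 1 model per symbol, 28 lay above and 6 below, against 28.3% above and 24.5% below among all 17816 symbols. After correction 19 lay above and 10 below, against 21.9% above and 21.9% below among all symbols. Correction for GC content alone left 16 above and 13 below, against 4394 and 4117 of all 14907 gene models with a known GC content. Each list below is to be read beside the same shares of all symbols, and with its own level in mind. The median mean percentile was 65.0 for all symbols and 96.2 for the heat shock list. Among the 6330 models averaging 75 or higher, 2629 lay above and 2123 below as deposited. Both are larger shares than among all symbols, so for lists of high level the all-symbol shares are a low yardstick. The list medians were 97.4 and 97.3 after UV and heat shock, against 95.5 and 95.8 after HGF and IFNg. DNAJB4, an Hsp40 co-chaperone, stood at 86.4 and 92.0, against 67.8 and 56.4. CHORDC1, an HSP90 partner, stood at 91.9 and 96.8, against 80.8 and 78.1. HSPA4L, an Hsp110 protein, stood at 94.8 and 98.0, against 86.6 and 83.3, and CACYBP at 97.9 and 98.1, against 89.6 and 79.6. All 4 had their heat shock value above their UV value. The gaps were 18.57, 11.10, 8.19 and 8.28 points for DNAJB4, CHORDC1, HSPA4L and CACYBP, and 9.87, 5.78, 2.01 and 1.06 points after correction. With GC content alone corrected, CHORDC1 kept 1.41 points and the sides of HSPA4L and CACYBP overlapped. HSF1, the factor that drives these genes, was lower, at 90.2 and 85.3, against 94.3 and 96.6, and the small chaperone HSPB1 stood at 97.8 and 95.02, against 99.2 and 99.4. Both of those transcripts are rich in GC (63.9% and 64.5%), and both signs turned under each of the 3 corrections for GC content.

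Other stress lists were divided between the sides. In the unfolded protein and integrated stress response list, 12 of 29 lay above and 9 below, and after correction 3 lay above and 10 below. SEL1L and DNAJC3, which serve protein quality control in the endoplasmic reticulum, stood at 82.7 and 87.8, and at 85.8 and 95.4, after UV and heat shock. After HGF and IFNg SEL1L stood at 75.4 and 74.99, and DNAJC3 at 81.2 and 73.2. CHAC1 and TRIB3, targets of the ATF4 branch, were lower on the stress side. CHAC1 stood at 59.3 and 42.4, against 80.8 and 97.9, and TRIB3 at 71.7 and 74.8, against 83.5 and 96.5. For both the IFNg value was the highest. After correction the sides of SEL1L, DNAJC3 and TRIB3 overlapped, and the gap of CHAC1 was -8.24 points.

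Of 38 genes of the DNA damage list, 13 lay above and 14 below, or 6 and 16 after correction. DDB2, which recognises UV lesions, stood at 63.8 and 66.7 after UV and heat shock, against 79.4 and 81.2 after HGF and IFNg. FDXR, ferredoxin reductase, stood at 51.6 and 52.6, against 71.1 and 77.4, and SESN2, a stress-induced regulator of growth signalling, at 55.5 and 40.6, against 71.9 and 94.3. In these 3 genes both stress values, UV included, lay below both ligand values. Their gaps after correction were -6.70 points for DDB2, -5.66 for FDXR and -9.72 for SESN2. ZMAT3 and ATR leaned the other way, with ATR, a kinase of the damage checkpoint, at 85.6 and 85.4, against 75.6 and 68.2 and a corrected gap of 0.23 points. ZMAT3 stood at 75.03 and 79.9, against 65.3 and 62.2, with a gap of 9.77 points as deposited and 2.20 after correction.

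Many immediate early genes, whose transcripts are short-lived, ranked lower after both stress treatments. Of 35 tested, 2 lay above and 18 below, and 3 and 15 after correction. The list medians were 76.8 and 77.9 after UV and heat shock, against 85.8 and 92.0 after HGF and IFNg. EGR1, a zinc finger transcription factor, stood at 76.8 and 52.6, against 95.6 and 98.6. FOS, a subunit of AP-1, stood at 66.7 and 38.5, against 88.5 and 91.3, and the orphan receptor NR4A1 at 60.9 and 57.3, against 87.5 and 96.9. For FOS and EGR1 the heat shock value was the lowest and the IFNg value the highest. The gaps of EGR1, FOS and NR4A1 after correction were -14.47, -19.09 and -19.39 points. The 2 genes above were BTG1, with a gap of 0.41 points, and IER5L, with 0.12 points.

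In the list of MET, ERK feedback and ERK target genes, 5 of 28 lay above and 7 below, or 2 and 7 after correction. ETV4, an ETS factor induced by ERK, stood at 45.5 and 45.4 after UV and heat shock, against 79.0 and 74.1 after HGF and IFNg. PHLDA2 stood at 68.0 and 71.0, against 93.8 and 94.4, and the angiogenic factor VEGFA at 83.2 and 84.0, against 94.8 and 96.9. PLAU and SPRY4, the urokinase gene and a feedback inhibitor of ERK signalling, had gaps of 4.36 and 4.09 points above. The gaps after correction were -16.79 points for ETV4, -7.09 for PHLDA2 and -8.67 for VEGFA. IFNg, not HGF, gave the highest value for PHLDA2 and VEGFA.

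Interferon response genes had their highest list medians after IFNg, while HGF lay between the stress treatments. In the IFNg list 1 of 42 lay above and 18 (42.9%) below, and 0 and 24 after correction. In the type I interferon list 3 of 43 lay above and 13 (30.2%) below, close to the 24.5% below among all symbols, and 1 and 16 after correction. The IFNg list medians were 54.2 and 56.4 after UV and heat shock, against 55.7 after HGF and 94.6 after IFNg. Those of the type I list were 64.5 and 66.8, against 64.7 and 88.2. Without IFNg the median stress minus ligand difference of the IFNg list was 0 points, against -15.2 with it, and that of the type I list 0.27, against -8.29. Some members were nevertheless above both stress values after HGF as well. IRF7, a regulator of interferon genes, stood at 45.5 and 32.7, against 64.7 and 88.8, and the antigen-presenting HLA-E at 74.0 and 69.1, against 84.8 and 99.3. Their gaps after correction were -3.10 and -5.91 points. Reads of HLA genes can be shared among paralogs. The 1 member above was B2M, with a gap of 0.03 points.

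Machinery of mitochondrial translation leaned to the stress side. Of 75 mitochondrial ribosomal proteins, 40 lay above and 20 below, and 31 and 13 after correction. MRPL13, a large subunit protein, stood at 91.0 and 93.7, against 75.3 and 70.8, with a gap of 15.71 points as deposited and 11.004 after correction. MRPS28 stood at 95.3 and 96.8, against 83.7 and 77.5. MRPL54, rich in GC at 60.9%, stood at 76.3 and 60.8, against 91.6 and 92.4. The nuclear genes of oxidative phosphorylation were divided as deposited, with 26 above and 27 below of 77, and 18 and 30 after correction. NDUFA5 and NDUFS7, both of complex I, lay at opposite ends. NDUFA5 (GC 35.0%) stood at 87.7 and 92.1, against 70.2 and 45.7, while NDUFS7 (GC 64.9%) stood at 45.5 and 63.6, against 86.1 and 87.2. ATP5D, a subunit of ATP synthase with 69.6% GC, stood at 67.1 and 69.99, against 98.1 and 97.8, and its gap of -27.78 points became -9.37 after correction. Of 80 cytosolic ribosomal proteins 30 lay above and 20 below, and 28 and 26 after correction, with the share below as deposited close to the 24.5% of all symbols. Paralogs and processed copies make single ribosomal protein genes uncertain. RPS27 stood at 98.6 and 99.2, against 74.0 and 82.9, and RPL28 at 93.1 and 88.5, against 99.4 and 99.0.

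Genes of chromosome segregation also leaned to the stress side, as deposited and after correction, but not with GC content alone corrected. Under that setting 12 of 48 lay above and 8 below, against 4394 and 4117 of all 14907 gene models with a known GC content. Both shares of the list were smaller than those of all gene models. Of 48 kinesins and centromere proteins 24 lay above and 9 below, and 18 and 7 after correction. CENPI stood at 79.4 and 84.2, against 65.1 and 57.7, and CENPH at 87.0 and 91.5, against 72.6 and 70.01. The centromere proteins CENPI and CENPH kept gaps of 7.57 and 7.49 points. KIF18B and KIF21B, motor proteins with GC contents of 58.4% and 59.7%, had gaps of -15.55 and -17.32 points. Of 21 centrosomal CEP genes 14 lay above and 3 below, but 6 and 4 after correction, and CEP57 had a gap of 10.27 points as deposited and 2.37 after correction.

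Several other families leaned to the stress side as deposited, and less or not at all after correction. Translation initiation factors had 32 of 57 above and 9 below, and 15 and 17 after correction. SR and hnRNP splicing factors had 21 of 40 above and 10 below, and 8 and 15 after correction. Ubiquitin-conjugating enzymes had 17 of 31 above and 6 below, then 9 and 10, and USP deubiquitinases 28 of 48 above and 8 below, then 15 and 10. Of 409 ZNF genes 165 lay above and 67 below, then 82 and 68. ZNF165 stood at 70.9 and 75.7, against 52.6 and 51.5, and ZNF414 at 61.5 and 63.9, against 86.2 and 88.1. Proteasome subunits had 17 of 33 above and 6 below, and 11 and 6 after correction.

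Clustered histone genes were mostly lower on the stress side as deposited, and this depended on the correction. Of 60 tested, 39 lay below and 1 above, or 24 and 10 after correction, but 19 below and 23 above with GC content alone corrected. The list medians were 91.9 and 92.7 after UV and heat shock, against 97.3 and 98.3 after HGF and IFNg. HIST1H4I stood at 83.0 and 86.8, against 99.1 and 99.3, and HIST1H3C at 63.9 and 69.1, against 89.2 and 92.6. The 1 gene above was HIST1H4C. Histone copies are near-identical, which makes single members uncertain.

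Sterol genes lay on both sides. Of 28, 11 lay above and 13 below, and 7 and 11 after correction. SQLE, an enzyme of cholesterol synthesis, stood higher on the stress side, at 90.4 and 91.1, against 79.2 and 78.3. SREBF1 and SREBF2, the SREBP transcription factors, and LSS, another enzyme of the synthesis, stood lower. SREBF2 stood at 76.9 and 81.4, against 96.4 and 94.7. After correction SQLE stayed above, and the gaps were -5.73 points for SREBF2, -10.81 for LSS and -0.15 for SREBF1.

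**Figure D3:**
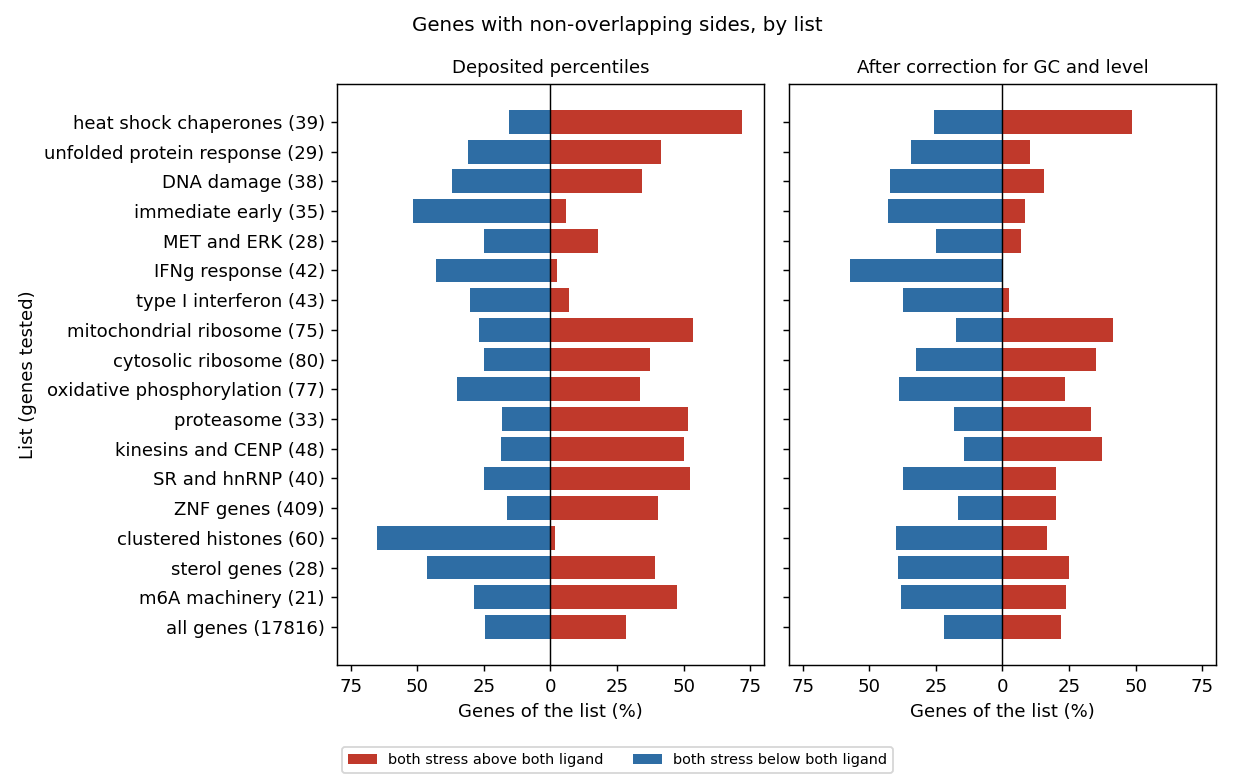
Share of the tested genes of each list (x axis, %) in which both stress treatments lay above (red, to the right) or below (blue, to the left) both ligand treatments, on the deposited percentiles and after correction for GC content and level. Heat shock chaperones lean to the right with 28 of 39 and 19 of 39, immediate early genes to the left with 18 of 35 and 15 of 35.

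With GC content alone corrected, the counts were 39 above and 15 below for mitochondrial ribosomal proteins, 12 and 8 for kinesins and centromere proteins, and 7 and 16 for immediate early genes. Proteasome subunits had 12 above and 15 below, ZNF genes 80 and 121, SR and hnRNP factors 10 and 23, and the m6A list 2 and 10. The IFNg list had 3 and 23 and the type I list 1 and 15.

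Of 21 enzymes and readers of m6A 10 lay above and 6 below, and 5 and 8 after correction. None had a gap of 10 points or more, which among all 17816 symbols 737 had above and 1017 below. The catalytic subunit METTL3, chosen after its values were seen, stood at 89.9 after UV and 82.6 after heat shock, against 86.9 after HGF and 88.7 after IFNg, so the sides overlapped. WTAP, which recruits the methyltransferase, stood at 92.9 and 93.0, against 82.6 and 87.5. KIAA1429, a scaffold of the complex, stood at 90.3 and 91.6, against 83.2 and 79.6, and the helicase reader YTHDC2 at 84.9 and 84.2, against 75.4 and 72.1. The demethylase ALKBH5 stood at 90.5 and 85.7, against 94.5 and 96.5. After correction WTAP and KIAA1429 kept gaps of 1.03 and 1.43 points, and the sides of YTHDC2 and ALKBH5 overlapped.

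At the level of sites, 15.1% of the 17764 were listed after both stress and neither ligand treatments and 2.26% after both ligand and neither stress treatments. The stress lists hold more peaks than the ligand lists. When only the 5280 highest scoring peaks of each treatment were kept, 956 of 10505 sites were listed on the stress side alone and 738 on the ligand side alone. Absence of a peak from one list does not show absence of m6A. One-sided sites lay in gene models of either direction at similar shares. Of the stress-only sites 35.5% were in gene models above on the stress side and 36.2% in gene models below. Of the ligand-only sites 35.9% were in gene models above and 36.4% in gene models below. Sites in all 4 treatments had 35.9% and 33.8%. Median transcript GC content was 50.9% for stress-only, 48.4% for ligand-only and 49.5% for sites in all 4.

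Where the sites lay in the transcript differed. Of 2623 stress-only sites with a segment label, 491 (18.7%, exact Clopper-Pearson 95% interval 17.2 to 20.3%) were at the transcript start. Of 390 ligand-only sites 6 were (1.54%, 0.567 to 3.32%), and of 2874 sites in all 4 treatments 26 (0.905%, 0.592 to 1.32%). These intervals cover counting error only. Coding sequence held 36.4% (34.6 to 38.3%) of stress-only, 54.9% (49.8 to 59.9%) of ligand-only and 42.4% (40.6 to 44.3%) of shared sites. The region around the stop codon held 22.5% (20.9 to 24.1%) of stress-only, 25.6% (21.4 to 30.3%) of ligand-only and 33.8% (32.0 to 35.5%) of shared sites. The 5' UTR held 4.23%, 1.79% and 1.74%, and the 3' UTR 18.1%, 16.2% and 21.2%, of stress-only, ligand-only and shared sites. Exon 1 held 28.0% of stress-only, 11.5% of ligand-only and 8.55% of shared sites, and the median length of the exon was 1002, 1709.5 and 1725 nt.

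**Figure D4:**
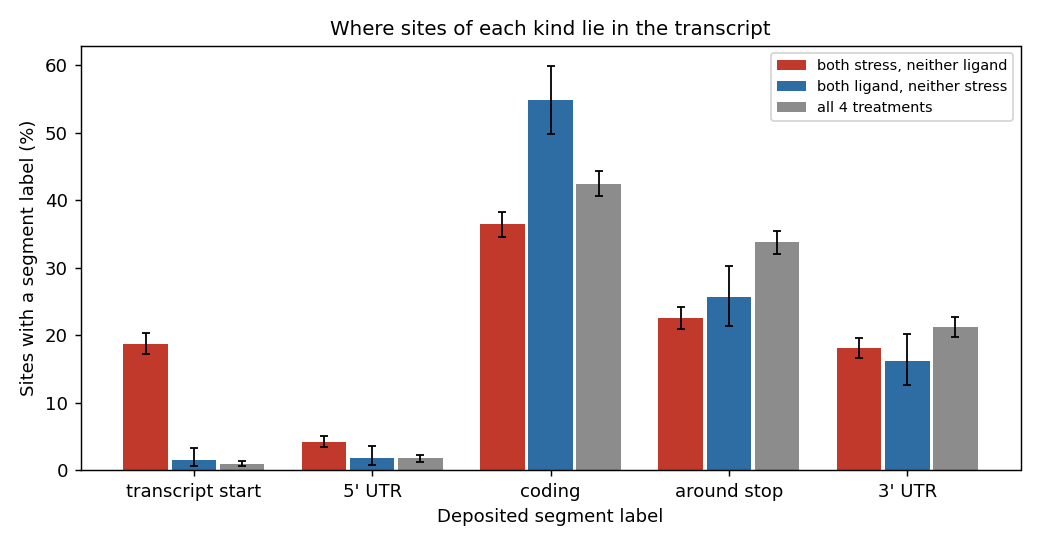
Share of sites with a segment label (y axis, %) by deposited segment label (x axis) for sites listed after both stress and neither ligand treatments (red), both ligand and neither stress treatments (blue) and all 4 (grey), with exact 95% intervals. The red bar at the transcript start reaches 18.7%, against 1.54% and 0.905% for the other two.

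The start share was also taken in sets of sites limited or split by expression, peak number, GC content or score. Stress-only and ligand-only sites were not matched to each other within these sets. In gene models whose 4 percentiles lay within 5 points and averaged 75 or more, it was 33.6% of 733 stress-only sites, 2.63% of 114 ligand-only sites and 1.85% of 596 shared sites. With equal numbers of peaks it was 20.6%, 0.832% and 0.312%. In 3 equal sets of low, middle and high GC content it was 26.8%, 18.8% and 13.4% for stress-only sites, against 1.36%, 0.962% and 1.59% for ligand-only sites. Among peaks above the median score of their treatment it was 17.8%, 0.621% and 0.340%. The interval of the stress-only share lay above that of the ligand-only share in each of these sets.

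**Figure D5:**
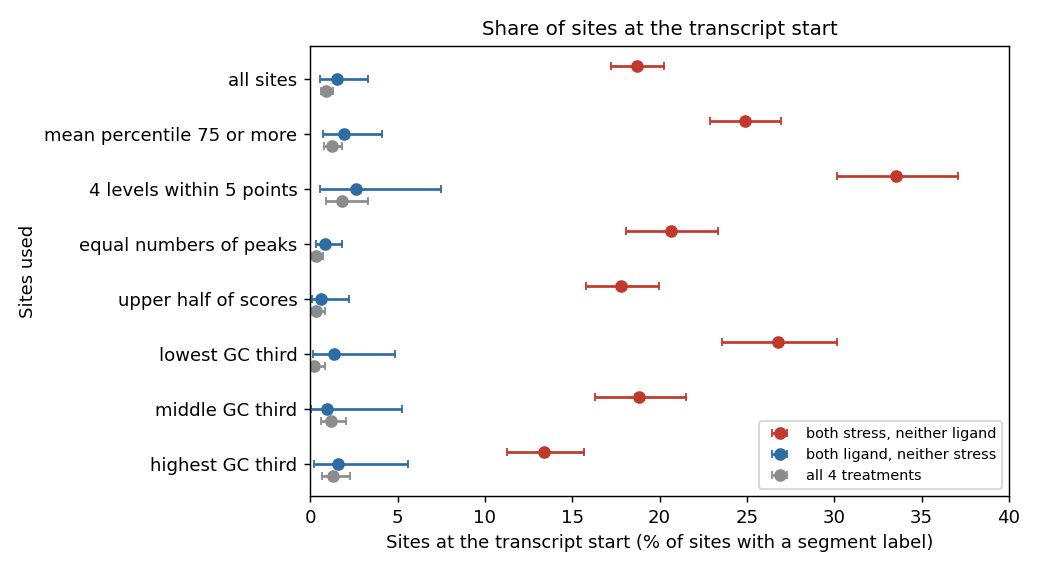
Share of sites at the transcript start (x axis, % of sites with a segment label, with exact 95% intervals) in 8 sets of sites (y axis). The stress-only share (red) runs from 13.4% in the set of highest GC content to 33.6% in gene models of level rank, and the ligand-only (blue) and shared (grey) values stay at or below 2.63%.

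The 2 treatments of a side differed in their own right. Transcript start peaks numbered 1229 after UV and 812 after heat shock, against 341 after HGF and 62 after IFNg. The peaks with a segment label numbered 12945 and 9585, against 8856 and 5165. The start share after HGF thus lay below both stress shares and above that of IFNg. Ligand-only sites and sites in all 4 treatments both need a peak after IFNg. The 62 start peaks after IFNg therefore limit how many sites of these kinds can lie at the start. Of the 1424 start sites, 1329 were listed after at least 1 stress treatment and 363 after at least 1 ligand treatment. Of the 340 start sites listed after HGF, 256 were also listed after a stress treatment, and of the 61 after IFNg, 44 were. Of those 256, 171 were listed after UV, heat shock and HGF but not IFNg. The peaks lay at median positions of 103 nt after UV and 104 nt after heat shock, against 116 and 115.5 nt after HGF and IFNg, counted from the start of the model. The fragments were about 100 nt long, so a peak does not place the modified base.

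The 491 stress-only start sites were in 491 gene models, of which 236 (48.1%) lay above on the stress side, 138 (28.1%) below and 117 overlapped. In 278 of them (56.6%) a ligand treatment listed a peak elsewhere in the same transcript. Their median mean percentile was 93.5. For comparison, of all 6330 gene models at 75 or more, 2629 lay above on the stress side and 2123 below. Of 6041 coding genes with a mean percentile of 75 or more, 1 model per symbol, 452 (7.48%) had a stress-only start site, 1487 (24.6%) any stress-only site and 291 (4.82%) a ligand-only site. The start share went up with level, from 3.05% (2.54 to 3.64%) at percentiles 75 to 90 to 12.8% (11.2 to 14.6%) at 90 to 97 and 24.0% (20.5 to 27.7%) at 97 or more. The ligand-only share was 4.32%, 6.18% and 4.50% in these bands. Each count below on a list is read beside its level.

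6 of the genes with the highest lower score at a stress-only start site are shown with RefSeq sequence of GRCh38.p14, since transcript starts held 491 sites of the stress side and 6 of the ligand side. Each run has 10 bases before the RefSeq start and 20 from it, 5' to 3', and the capital marks the first transcribed base.
EIF4G2: tgtcggaagcActtccctaacttgcgcctg
FAM62B: gcgtcccctcAgaggggcgctggcgcgggg
HIF1A: tcagctcctcAgtgcacagtgctgcctcgt
SFRS6: cgcgcgcgccAttgtgtggctggactcggc
NOL11: gccgtacttaGgtttgctcaaaatggcagc
PTGES3: gccgcccggcCtcaccacccctcgtttgca

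The coordinates are chr11:10807977-10808006 (minus strand) for EIF4G2, chr7:158829490-158829519 (minus) for FAM62B, now named ESYT2, and chr14:61695503-61695532 (plus) for HIF1A. They are chr20:43457886-43457915 (plus) for SFRS6, now SRSF6, chr17:67717926-67717955 (plus) for NOL11 and chr12:56688265-56688294 (minus) for PTGES3. EIF4G2, FAM62B, HIF1A and SFRS6 start with A, NOL11 with G and PTGES3 with C. CRIM1 ranked between EIF4G2 and FAM62B, with scores of 7.70 after UV and 6.72 after heat shock, and is not shown. The RefSeq start need not be the start of the deposited model. Of the 452 genes with a stress-only start site, 365 (80.8%) had a RefSeq promoter, and 57.3% of these (52.0 to 62.4%) had A as the first base. Among 3954 genes at 75 or more with no start peak in any treatment, which stood lower on the whole, it was 41.0% (39.5 to 42.5%), and among all 4966 it was 43.7%. Genes with other kinds of start peak were not counted apart, so the share with A is not shown to be particular to stress-only start sites. The share with A was 56.4%, 58.9% and 55.6% at mean percentiles 75 to 90, 90 to 97 and 97 or more, against 42.3%, 39.1% and 32.9% for genes without a start peak. In the genes without a start peak, C was the first base in 11.6% at 75 to 90 and in 30.9% at 97 or more. With a stress-only start site it was in 8.51% and 13.9%. The motif GGAC, searched in the 50 bases from the start as written 5' to 3' in the transcript, was in 20.8% of genes with a stress-only start site, 18.7% of genes without a start peak and 18.8% of all 27305 promoters. Median GC content of those 50 bases was 66.0% with a stress-only start site and 68.0% without a start peak. These are descriptions of sequence, and which base was modified was not tested.

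The sites of HIF1A, SFRS6, DNAJA1, HSPA1A, METTL3, YTHDF3, MET and RGS2 were chosen after their values were seen. EIF4G2, a translation initiation factor, had start peaks at a site of position 185.5 with scores of 7.56 after UV and 7.35 after heat shock, and no peak there after HGF or IFNg. Its percentiles were 99.7 and 99.7, against 99.2 and 99.2, so the transcript ranked near the top in all 4. The score is the authors' own, of unstated formula, with a lowest value of 2. HIF1A, the hypoxia factor, had its only site at its transcript start, with scores of 8.08 and 6.19 after UV and heat shock. Its percentiles were 98.9 and 99.2, against 98.1 and 98.1. SFRS6, a splicing factor, had scores of 7.56 and 6.10 at position 84.5, while a site around its stop codon was listed after UV and HGF.

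Stress-only start sites were found in chaperone genes. Of 34 in the heat shock list with a mean percentile of 75 or more, 10 had one (29.4%), against 7.48% of all coding genes at 75 or more and 24.0% of those at 97 or more. These 10 were DNAJA1, AHSA1, FKBP4, PTGES3, TCP1, CCT4, DNAJB1, HSPA4L, HSPA1A and DNAJB4, and 16 of the 34 stood at 97 or more. Other lists of high level had similar shares, with 5 of 18 NRF2 and antioxidant genes (27.8%), 5 of 19 housekeeping genes (26.3%) and 5 of 22 unfolded protein response genes (22.7%). DNAJA1, an Hsp40 protein, had scores of 3.88 and 4.27 at position 145.5 after UV and heat shock and none after HGF or IFNg. Around its stop codon it had 6.39 and 4.95, against 3.40 and 2.21. HSPA1A, an inducible Hsp70, had 5.18 and 3.99 at position 80.5. Its reads can be shared with its near-identical copy. The start site of DNAJB1 had low scores, 2.17 and 2.45.

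Splicing factors had the highest share of the lists. Of 39 SR and hnRNP genes 14 (35.9%) had a stress-only start site, with 18 at percentile 97 or more. Oxidative phosphorylation had 13 of 70 (18.6%), the proteasome 7 of 32 (21.9%) and ubiquitin-conjugating enzymes 7 of 24 (29.2%), the last with 1 gene at 97 or more. UBE2H and UBE2Z, which are among them, ranked lower on the stress side, with gaps of -5.08 and -9.58 points. Cytosolic ribosomal proteins, of which 49 of 74 stood at 97 or more, had 5 (6.76%), clustered histones 4 of 48 (8.33%) and mitochondrial ribosomal proteins 5 of 70 (7.14%). The m6A list had 2 of 20, METTL3 and the reader YTHDF3. METTL3 had scores of 2.72 and 3.41 at position 110 after UV and heat shock, and YTHDF3 had 4.05 and 6.52 at position 126.

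One-sided sites with high scores also lay away from the start. Of the 10 stress-only sites with the highest lower score, the site of CKAP5, a microtubule polymerase, had 8.33 after UV and 7.16 after heat shock around the stop codon. CDH2, N-cadherin, had 7.35 and 7.08, and DNAJC3 7.66 and 6.87, also around the stop codon. On the ligand side, YOD1, a deubiquitinase, had 6.78 after HGF and 5.28 after IFNg in coding sequence at position 622. ASH1L, a histone methyltransferase, had 6.82 and 4.69 at position 1586, and RBM15B, a component of the m6A complex, had 5.85 and 4.70 at position 1298. With windows of 50 and 200 nt, 10 and 9 of the 10 stress sites, and 10 and 9 of the 10 ligand sites, stayed one-sided.

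Some transcripts held sites of both kinds. There were 130 such gene models, 5.82% of the 2235 with stress-only sites and 34.8% of the 374 with ligand-only sites. In 30 of them the nearest such sites were under 200 nt apart, and the median distance was 442.25 nt. SOCS6, a suppressor of cytokine signalling, had a stress-only site at position 1322 with scores of 7.11 and 6.47, and a ligand-only site at 1686.5 with 6.001 and 5.94, in the same exon. MET, the HGF receptor, had a stress-only start site at position 117 (4.21 and 5.26) and ligand-only sites at 890 (3.17 and 2.34) and 6048.5 (3.78 and 2.47). A site of MET at position 508 was in all 4, with 5.83 and 6.24 after UV and heat shock, against 6.13 and 4.56 after HGF and IFNg. PRDM1, a transcriptional repressor, had 3 ligand-only sites, the highest number, and 1 stress-only site. RGS2, a regulator of G protein signalling, had a stress-only site at 758.5 and a ligand-only site at 642, 116.5 nt apart.

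The highest number of stress-only sites was 5, in ARID1B, FLNA, MKI67 and SRRM2, which have long transcripts of 8516 to 12678 nt. In FLNA, filamin A, UV and heat shock listed 8 and 8 peaks, against 3 and 1 after HGF and IFNg, at percentiles of 99.3 and 98.6, against 99.7 and 99.8. MKI67, a proliferation marker, had 13 and 9 peaks, against 9 and 3. Gene models with 2 or more stress-only sites numbered 359, and those with 2 or more ligand-only sites 26.

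At the 2925 sites listed after all 4 treatments, scores were compared as ranks within each treatment, in points from 0 to 100. Both stress ranks lay above both ligand ranks at 676 sites (23.1%) and below at 761 (26.0%). Gaps of 25 points or more were seen at 167 (5.71%) and 186 sites (6.36%). Within the stress side the rank correlation of scores was 0.69, and within the ligand side 0.52, against 0.29 to 0.47 across the sides. Points are sites sharing the same 4 libraries. GC content went with these ranks too. In the set of lowest GC content 30.4% of sites lay above and 17.6% below, and in that of highest GC content 16.2% and 36.6%. Median GC content was 47.1% for sites above and 53.3% for sites below. The part of GC content in these scores was not tested.

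The largest score differences were seen at the following sites. At the stop codon of DST, a cytolinker, the score rank was 98.9 after UV and 94.8 after heat shock, against 11.2 after HGF and 0.342 after IFNg. At the stop codon of WDR43, a ribosome biogenesis factor, it was 98.7 and 98.5, against 14.6 and 22.7. In the 3' UTR of IRS2, an adaptor of the insulin receptor, it was 9.23 and 5.54, against 91.3 and 96.4. IRS2 stood at percentiles of 81.1 and 75.9, against 73.1 and 84.6, so its expression overlapped. In coding sequence of BCL9L, a coactivator of beta-catenin, the score rank was 22.6 and 7.59, against 91.0 and 86.8, and in NFE2L1, a transcription factor of proteasome genes, 4.34 and 3.25, against 68.4 and 83.0. Of the 10 sites with the largest gaps, the stress ranks of ARMCX5, ACACA and MED10 lay above, and those of ZNF41 and PPYR1 below. Expression gaps were 3.15 points for DST, 3.23 for WDR43, -9.85 for BCL9L, -0.93 for NFE2L1 and -0.88 for PPYR1. Each of these had the sign of its score gap, while ARMCX5, at -0.98 points, had the other sign. In ACACA, MED10 and ZNF41 expression overlapped, as in IRS2. The part of expression in these scores was not tested.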

How the data were processed

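RNA selected for polyA was cut to fragments of about 100 nt, precipitated with an antibody to m6A and turned into cDNA with random primers, per the labels' protocols. The deposited expression values are fractions from 0 to 1, the rank of a gene model within a treatment, made by the authors. The library behind that rank is not stated. The deposited peak score is the authors' own, with no formula given and a lowest value of 2. Library depth is unknown. The aligner, peak caller and genome build are not given in the sources used here. Of symbols matched to RefSeq GRCh38.p14, 99.7% lay on the same chromosome but only 0.0662% had a start close to the RefSeq one, so no coordinates were mixed.

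Ranks were multiplied by 100, and the highest floor, 45.5, replaced anything lower. GC content came from GENCODE 29 transcripts, matched by symbol, older symbol or RefSeq synonym for 81.9% of the 18195 gene models. For the correction, gene models were put in 20 classes of GC content by 10 of level, and each class median was subtracted within the treatment. Peaks within 100 nt in the same gene model formed a site. Intervals of shares are Clopper-Pearson intervals at 95%, for counting error alone. The tools were matplotlib 3.10.9, SciPy 1.17.1, NumPy 2.4.6, pandas 2.3.3 and Python 3.11.15. The counting was tested on simulated data.

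The members and lists were chosen with earlier results of these data known. A rule picked, per direction, the 10 gene models with the largest gap, small nucleolar and other short RNAs left out, 5 after GC correction, up to 4 members of each list, the 10 one-sided sites with the highest lower score, the 5 sites in all 4 treatments with the largest score rank gap and the 5 gene models with the most one-sided sites. Genes with transcript start sites, and genes said to be so, were chosen after their values were seen. Other floors, corrections, filters, windows and equal peak numbers were tried, and each treatment was left out in turn. Many genes that this rule picks, whole lists among them, are not reported here.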

Additional observations from a re-analysis of the deposited data

How the results depend on the processing

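The counts moved with the scale and the filters. Against 5108 of 18195 gene models above on the stress side, there were 12316 of 25918 with the floors as deposited, since floors of unequal height then count as differences, 2629 with a mean percentile of 75 or more (fewer tested), 3274 after GC and level correction, and 2285 and 755 with gaps of 5 and 10 points. Against 4453 below, there were 2123 with a mean percentile of 75 or more, and 2223 and 1034 with gaps of 5 and 10 points. With 10 points or more, 755 above became 5577 with the floors as deposited, 1781 with ranks recomputed, 455 after GC correction, 413 after GC and length correction, 239 at 75 or more and 212 after GC and level correction. The 1034 below became 1749, 270, 298, 408 and 223 under the same settings without the first. Stress-only sites, 2678 in all, numbered 956 with equal peak numbers, 1378 above the median score, 742 in gene models of level rank, and 732, 885 and 952 in the sets of low, middle and high GC content. Ligand-only sites, 401 in all, numbered 738 with equal peak numbers, 117 at level rank, and 147, 104 and 126 in those GC sets. The start share of stress-only sites, 18.7%, was 33.6% at level rank, 20.6% with equal peak numbers, 24.9% at 75 or more, 26.8% at low and 13.4% at high GC content. Sites in all 4 treatments with stress scores above, 676 in all, numbered 395 and 167 with gaps of 10 and 25 points, and 261, 241 and 150 in the GC sets; those below, 761 in all, numbered 457, 186, 151, 243 and 340. Without 1 treatment in turn, fewer values must be ordered, and the counts ran from 6080 to 7512 gene models above and 5429 to 6622 below, with 10 points or more 1215 to 1870 and 1476 to 1971, for sites 2943 to 6408 stress-only and 626 to 2000 ligand-only, and for scores 1012 to 1118 above and 1085 to 1167 below. Of 268 genes picked by the naming rule 266 had a corrected value, and 31 changed sign and 64 overlapped after GC correction, or 14 and 53 after GC and level correction. In 83 of them followed through the other settings, the sides of 10, 10 and 5 overlapped under GC, GC and length, and GC and level correction. With ranks recomputed only 68 had a value. Under each of those corrections 4 changed sign. In the same order, the gaps were 3.07, 0.53 and 0.92 points for HSF1 and 6.81, 9.86 and 0.97 for HSPB1. They were -3.17, -6.63 and -4.29 for BTG1, and -7.87, -6.42 and -1.75 for B2M. Of 34 lists, 24 kept the sign of their median difference after GC and level correction, 19 after GC correction and 25 without IFNg. Apart from those named, the cause was not tested. GC and level correction, the score and GC sets of sites and the site filter at 75 were chosen after seeing the data. No paired analysis was possible because each treatment had 1 library of a kind and no test was run. Depth is unknown, so a missing peak has no detection limit.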
